A study of Homo sapiens with 3 samples.

Results

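SMAD2/3 binding was examined at 8 human genes of the cytostatic and early transcription factor response to TGFβ, namely CDKN1A, CDKN2B, KLF10, KLF11, BHLHE40, ID1, ID2 and ID3. For each gene, all ChIP-seq peaks overlapping its hg19 gene body extended by 50 kb on each side were taken, so a gene without a peak was kept as a member. In ChIP-seq, DNA fragments recovered with an antibody are sequenced, and a peak is a stretch where the authors' peak caller MACS found them enriched, with a score it assigned to each peak. The rule gave 17 peaks, 7 of 3280 at 16 h and 10 of 2206 at 1.5 h. The cells were MCF10A MII, an H-Ras transformed derivative of the breast epithelial line MCF10A. They received 5 ng/ml TGFβ3 for 16 h (1 library) or 1.5 h (1 library), and untreated cells gave an input DNA library that was not analysed here. All were grown in serum-containing medium with EGF, cholera toxin, hydrocortisone and insulin. Both ChIP libraries were made with an antibody against SMAD2/3, so the factors SMAD2 and SMAD3 cannot be told apart. MCF10A cells are known to have lost the part of chromosome arm 9p that holds CDKN2A and CDKN2B, and the lists carry no DNA copy number. With 1 library at each time there was no replicate error and no test between the times, and read numbers per peak are unknown from the lists.

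TGFβ receptors phosphorylate SMAD2 and SMAD3, which enter the nucleus with SMAD4 and bind regulatory DNA together with other factors. In epithelial cells this pathway is known for halting the cell cycle. It raises the cyclin-dependent kinase inhibitors p15 (CDKN2B) and p21 (CDKN1A), and it lowers the ID proteins, which hold basic helix-loop-helix factors off DNA. KLF10 and KLF11 are zinc finger factors known as TGFβ-inducible early genes, and BHLHE40 is a basic helix-loop-helix repressor that binds E-box sequences and is also part of the circadian clock.

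Listed SMAD2/3 binding in this gene set was concentrated at BHLHE40. BHLHE40 held 4 of the 7 peaks at 16 h and 6 of the 10 at 1.5 h, and it was the only member with peaks that overlapped between the times. ID1 had 3 peaks at 16 h and 1 at 1.5 h. CDKN1A had no peak at 16 h and 1 at 1.5 h, and ID3 had none at 16 h and 2 at 1.5 h. CDKN2B, KLF10, KLF11 and ID2 had no peak in their windows at either time.

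**Figure D1:**
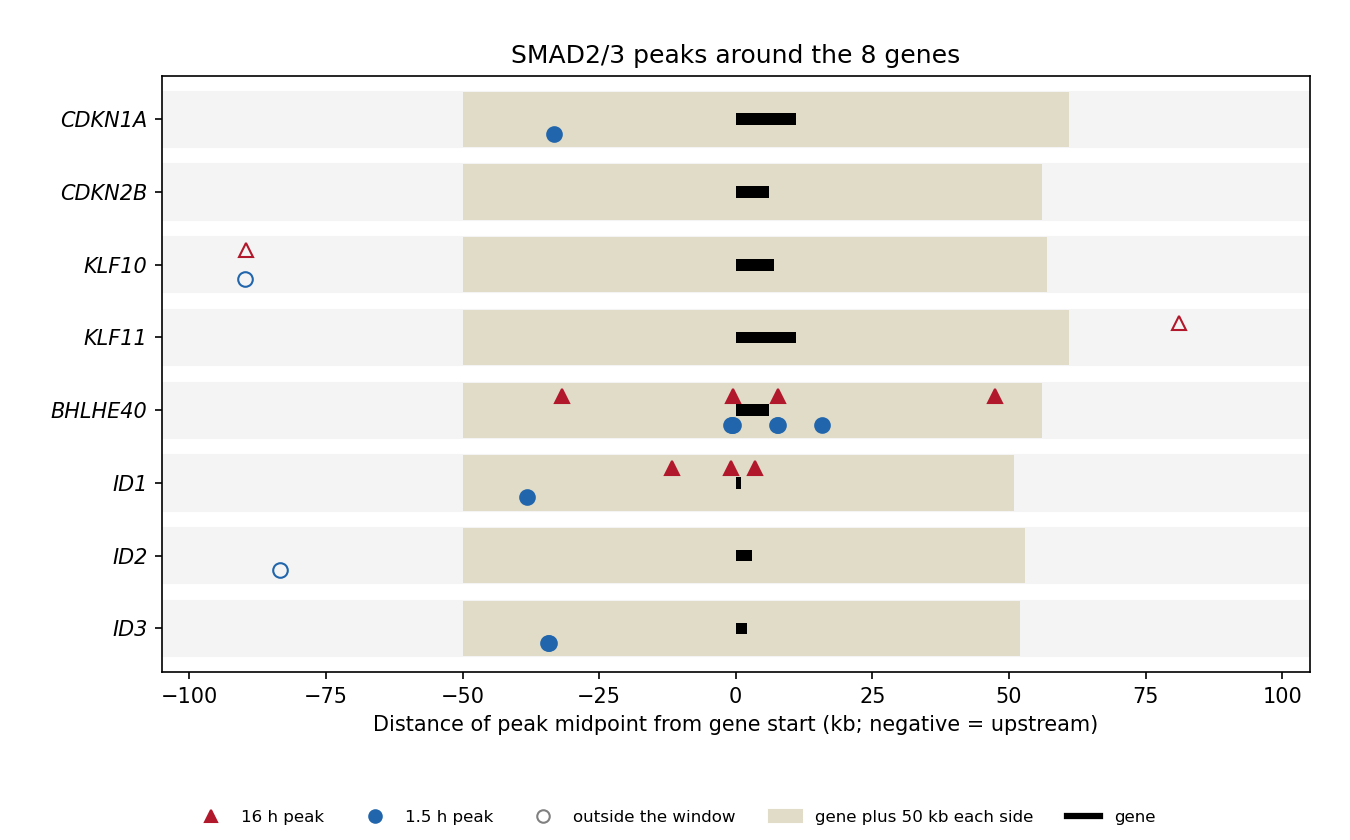
Positions of SMAD2/3 peaks around the 8 genes, as the distance of each peak midpoint from the gene start in kb with upstream to the left. Red triangles are 16 h peaks and blue circles 1.5 h peaks, open where they lie outside the window of the gene plus 50 kb (shaded). Peaks near the gene are seen at BHLHE40 at both times and at ID1 at 16 h, and several 1.5 h symbols at BHLHE40 and ID3 lie on top of each other.

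These numbers were read against stretches of 106 kb, the median window length, laid end to end over each chromosome between its first and last listed peak. A peak was present in 2 of 8 windows (BHLHE40 and ID1) at 16 h and in 4 of 8 at 1.5 h (BHLHE40, ID1, ID3 and CDKN1A). Of the 27894 stretches, 9.53% held a 16 h peak and 5.37% held a 1.5 h peak. Peaks of both times were present in 2 of 8 windows (BHLHE40 and ID1) and in 2.1% of stretches. The stretches also include sequence with few genes or unassembled bases, so they are a description of the lists and not a matched control. The 8 genes were chosen with earlier results of these data known, so the shares and densities given here are no independent evidence of enrichment. At least 4 peaks at 16 h, the number at BHLHE40, were found in 0.133% of stretches, and at least 6 at 1.5 h in 0.0645%. The 3 peaks at ID1 at 16 h were equalled or exceeded in 0.38% of stretches, and the 2 at ID3 at 1.5 h in 1.42%. Peaks were counted here as listed, although some are close pieces. Merging neighbours under 500 bp apart left 3 peaks at BHLHE40 and 1 at ID3 at 1.5 h. Shares of stretches were not computed for merged peaks. Peak density in the 847 kb of windows was 8.26 peaks per Mb at 16 h and 11.8 per Mb at 1.5 h, against 1.11 per Mb at 16 h and 0.746 per Mb at 1.5 h over the 2958 Mb spanned by the lists. Without the BHLHE40 window it was 4.05 per Mb at 16 h and 5.40 per Mb at 1.5 h.

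**Figure D2:**
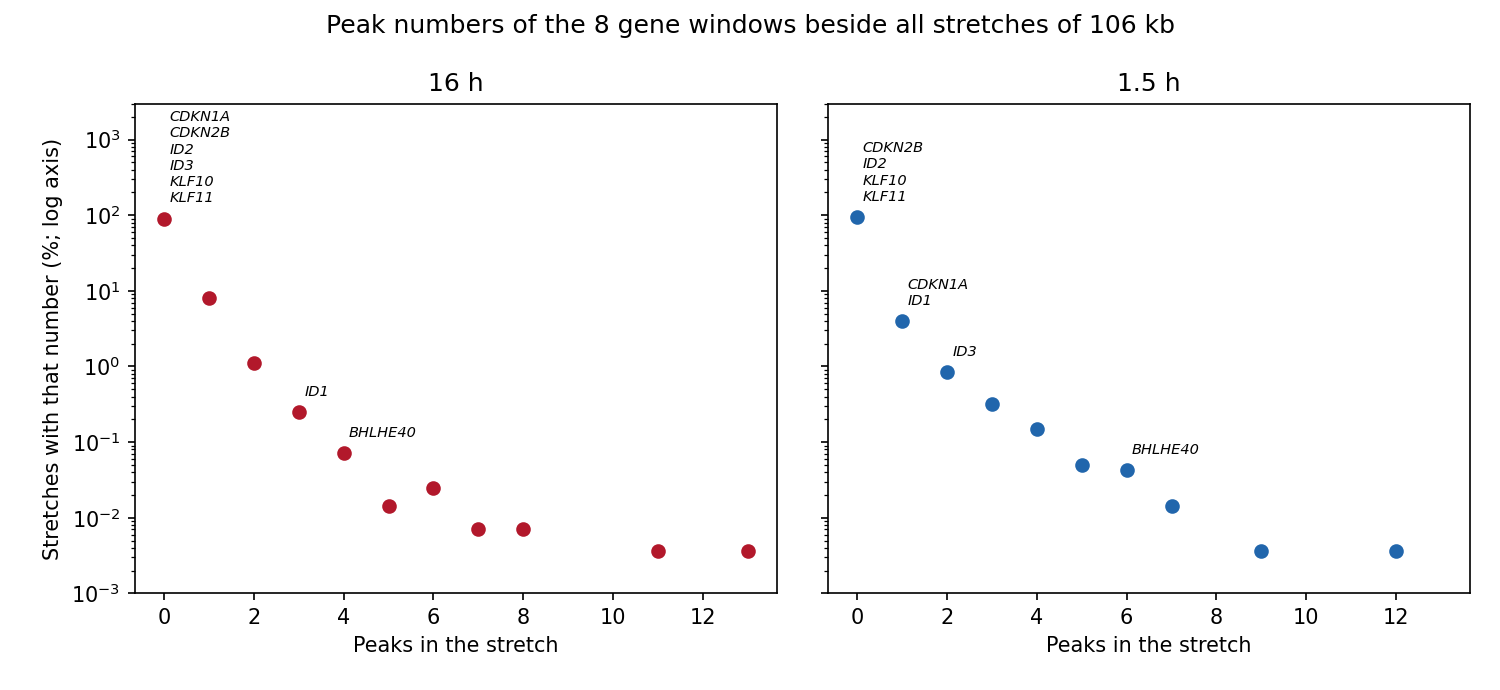
Share of 106 kb stretches (log axis, percent) against the number of peaks they held at 16 h (left) and 1.5 h (right), with the 8 genes written at their own peak number. BHLHE40 stands at 4 peaks at 16 h and 6 at 1.5 h, and 6 genes stand at 0 at 16 h against 4 genes at 0 at 1.5 h.

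Of the cell cycle inhibitors, CDKN1A encodes p21, which blocks cyclin-dependent kinases and is also a main target of p53. No peak was listed in its window at 16 h, where the nearest peak lay 838 kb upstream. At 1.5 h its window held 1 peak, at chr6:36610630-36610725, 33 kb upstream of the gene on the side of its protein-coding neighbour SRSF3. This peak was 96 bp wide and scored 62.5, with 55.1% of the 1.5 h list scoring higher. The nearest 16 h peak to it was 805 kb away. No peak lay at the gene start at either time. The RefSeq promoter of CDKN1A, from 250 bases before to 50 after the start, is shown in build GRCh38.p14 as the sequence of a member whose start had no listed peak, with matches to 7 searched motifs in capitals. All its capitals are the GC box GGGCGG, matched 4 times, with the last 2 sharing a base.
CDKN1A, chr6:36678464-36678763, plus strand: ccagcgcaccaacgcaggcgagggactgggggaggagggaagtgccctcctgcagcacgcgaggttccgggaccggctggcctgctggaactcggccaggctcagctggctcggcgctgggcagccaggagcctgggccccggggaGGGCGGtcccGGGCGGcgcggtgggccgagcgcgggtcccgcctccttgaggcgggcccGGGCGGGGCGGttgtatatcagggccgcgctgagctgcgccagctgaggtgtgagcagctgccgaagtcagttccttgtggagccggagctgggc

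CDKN2B encodes p15, an inhibitor of the cyclin D-dependent kinases, and lies next to CDKN2A. It had no peak within 50 kb at 16 h or at 1.5 h. The peak-free stretch around it, over both lists, measured 524 kb, at chr9:21685397-22209016. On the CDKN2A side it was bounded by a site 318 kb away that was listed at both times, scoring 285.8 at 16 h (chr9:21684866-21685396, rank 56 of 3280) and 54.6 at 1.5 h (chr9:21685203-21685275). On the other side it ended at a 16 h peak 200 kb away that scored 63.4. A stretch of this size was common, since 1705 of the 4849 stretches between neighbouring peaks were longer. Stretches at least as long made up 84.5% of the total length of all such stretches. Whether the chromosome 9 segment was present in these cells was not tested.

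Neither Krüppel-like factor gene had a peak in its window, but a site listed at both times lay beyond the window of KLF10. KLF10 encodes TIEG1, a repressor that is known to lower SMAD7 and so to prolong TGFβ signalling. The KLF10 site was 90 kb upstream, at chr8:103757613-103757793 at 16 h and chr8:103757643-103757880 at 1.5 h. It scored 64.3 at 16 h, with 29.7% of that list higher, and 110.0 at 1.5 h, with 16.9% higher. The gene on that side in the RefSeq order is AZIN1, and the site was not assigned to either gene. KLF11 encodes TIEG2, a related repressor. Its nearest 16 h peak lay 70 kb downstream at chr2:10265068-10265176 with a score of 52.9, and its nearest 1.5 h peak was 443 kb away.

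The limit of 50 kb therefore decided how several genes were counted. The peak farthest inside the limit was 41 kb from its gene (BHLHE40, at 16 h). The nearest peaks outside it were those 70 kb from KLF11, 83 kb from ID2 and 90 kb from KLF10. With 100 kb on each side, 4 genes had a peak at 16 h and 6 at 1.5 h, and CDKN2B still had none. With 25 kb on each side, ID1 kept its 3 peaks at 16 h and BHLHE40 kept 2 of 4. The 16 h peaks of BHLHE40 at 32 and 41 kb, the latter its highest-scoring, were lost. BHLHE40 was the only gene with a peak at 1.5 h and kept all 6, so its 16 h minus 1.5 h difference went from -2 to -4. The 1.5 h peaks of CDKN1A, ID1 and ID3, at 33, 38 and 34 kb, were then outside.

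At BHLHE40 SMAD2/3 peaks lay on both sides of the gene, just upstream of its start and just beyond its end. The gene limits used were rounded to 1 kb, so distances carry that uncertainty. Upstream, the 16 h list held 1 peak at chr3:5020333-5020517, 185 bp wide with a score of 88.3. The 1.5 h list held 3 peaks there, at chr3:5019993-5020201, chr3:5020265-5020365 and chr3:5020505-5020624, with scores of 97.2, 57.4 and 59.2. All 4 lay within about 1 kb of the gene start. The 16 h peak spanned the 139 bp gap between the second and the third of the 1.5 h peaks, overlapping them by 33 bp and 13 bp. It stopped 131 bp short of the first, which had the highest 1.5 h score of the 3 and no overlapping 16 h peak.

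The downstream site had the same arrangement of a single peak at 16 h and several at 1.5 h. The 16 h peak at chr3:5028593-5028806 scored 106.5, with 10.4% of the list higher. At 1.5 h there were 2 peaks separated by 30 bp, at chr3:5028478-5028725 with a score of 125.4 (13.0% higher) and chr3:5028756-5028866 with a score of 62.2. The 16 h peak overlapped the first by 133 bp, which was 62.1% of the 16 h peak and 53.6% of the 1.5 h peak, and the second by 51 bp. The upstream and downstream sites were 8.07 kb apart at 16 h and 7.85 kb apart at 1.5 h.

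Other BHLHE40 peaks were listed at 1 time only, both early and late. At 16 h a peak at chr3:5068183-5068539, 41 kb downstream of the gene, was 357 bp wide and scored 239.6. It ranked 81 of 3280 in its list and 9 of the 2736 peaks found only at 16 h, and the nearest 1.5 h peak was 31.4 kb away. A weaker 16 h peak, scoring 57.6, lay 32 kb upstream on the ITPR1 side at chr3:4989140-4989224. At 1.5 h a peak 10 kb downstream at chr3:5036581-5036812 scored 86.55, and the nearest 16 h peak was 7.77 kb away. It ranked 282 of the 1648 peaks found only at 1.5 h. Whether a site missing from a list lay just below the authors' threshold there was not tested.

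**Figure D3:**
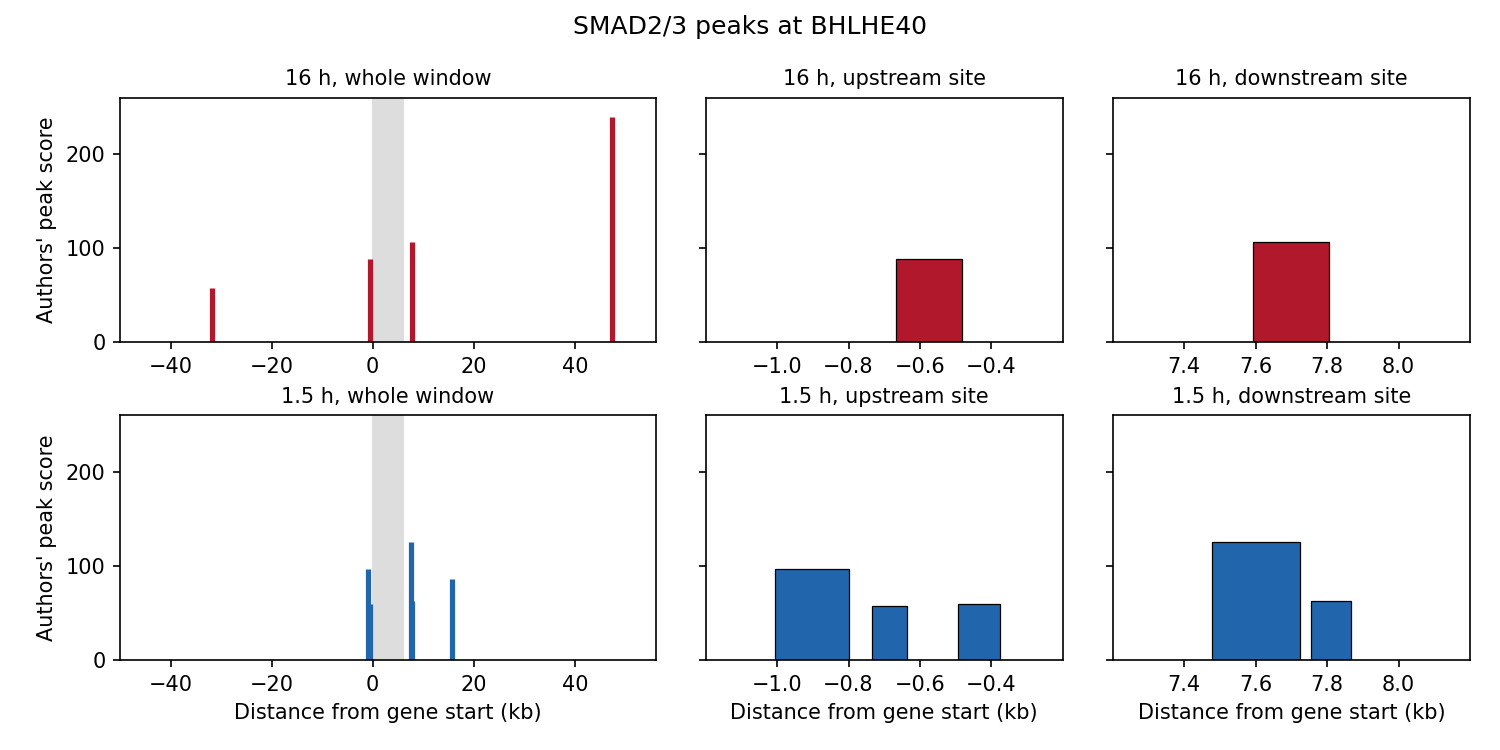
Authors' score of each SMAD2/3 peak at BHLHE40 at 16 h (top) and 1.5 h (bottom) against distance from the gene start in kb. The left panels show the whole window with the gene in grey and peaks as lines, and the other panels enlarge the upstream and downstream sites, where bar width is peak width. The 16 h list has 1 peak at each enlarged site, against 3 and 2 at 1.5 h, and its tallest peak (239.6) is 41 kb beyond the gene.

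In counts, 2 of the 7 peaks at 16 h overlapped a 1.5 h peak, where 16.6% of all 16 h peaks did. At 1.5 h, 4 of the 10 overlapped a 16 h peak, where 25.3% of all 1.5 h peaks did. The 6 peaks make up only the 2 sites beside BHLHE40, and peaks of a site are not independent of each other. The direction of the difference in peak numbers depended on how neighbouring peaks were counted. Merging neighbours less than 500 bp apart left 4 BHLHE40 peaks at 16 h and 3 at 1.5 h, a difference of 1 in place of -2. Over the 8 windows it left 7 peaks at 16 h and 6 at 1.5 h, a difference of 1 in place of -3. Over the whole lists, merging removed 6.95% of the 16 h peaks and 19.2% of the 1.5 h peaks.

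The promoter of BHLHE40 is shown because peaks of both times lay within about 1 kb of its start. The peaks are on hg19 and could not be placed on this GRCh38.p14 sequence.
BHLHE40, chr3:4979187-4979486, plus strand: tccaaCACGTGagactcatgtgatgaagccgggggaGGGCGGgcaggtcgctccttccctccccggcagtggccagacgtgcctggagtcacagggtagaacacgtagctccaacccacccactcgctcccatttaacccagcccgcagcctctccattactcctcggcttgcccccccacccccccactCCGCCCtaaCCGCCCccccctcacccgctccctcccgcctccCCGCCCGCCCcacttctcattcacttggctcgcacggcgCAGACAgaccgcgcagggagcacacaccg
Capitals mark the E-box CACGTG near the 5′ end, 5 GC boxes (GGGCGG, read as CCGCCC on the other strand, 2 of them overlapping by 2 bases) and 1 CAGACA, which contains the SMAD core AGAC. The CAGACA match began 21 bases after the start. AGAC alone was not a searched motif. It also occurs in the ID1 and ID3 promoters printed below and in the promoters of ID2, CDKN2B and KLF11, which are not printed. Among the promoters of the 7 members found in RefSeq, BHLHE40 was the only gene with CAGACA, which 16.9% of all 35116 promoters hold on either strand. CACGTG was found in BHLHE40 and KLF11 and in 7.26% of all promoters.

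The ID genes encode helix-loop-helix proteins without a basic region, which pair with E proteins and keep them from DNA. Listed SMAD2/3 peaks were found in the ID1 window at both times, in the ID3 window at 1.5 h only and in the ID2 window at neither time. ID1, which SMAD3 is known to repress together with ATF3 in epithelial cells, had 3 of its 4 peaks at 16 h. They lay 12 kb upstream at chr20:30181258-30181449 (score 77.5, 19.1% of the list higher), about 1 kb upstream at chr20:30192069-30192177 (score 58.2, 44.1% higher) and 2 kb downstream at chr20:30196403-30196491. The last of these scored 50.02 and ranked 3274 of 3280 in its list. At 1.5 h the ID1 window held 1 peak, 38 kb upstream on the side of MCTS2 and HM13, at chr20:30154727-30154799 with a score of 61.5. It lay 26.5 kb from the nearest 16 h peak, and no ID1 peak overlapped between the times. Most peaks of the whole lists did not either, since 16.6% at 16 h and 25.3% at 1.5 h overlapped the other time.
The promoter of ID1 is given because its start was the other one with a peak within about 1 kb, at 16 h.
ID1, chr20:31605039-31605338, plus strand: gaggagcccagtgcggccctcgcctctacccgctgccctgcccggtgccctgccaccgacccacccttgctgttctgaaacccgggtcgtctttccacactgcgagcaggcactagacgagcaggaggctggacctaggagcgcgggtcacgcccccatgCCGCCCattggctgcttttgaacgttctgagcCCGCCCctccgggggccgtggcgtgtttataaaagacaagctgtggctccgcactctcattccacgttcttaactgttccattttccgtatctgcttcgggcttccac
Its capitals are 2 GC boxes on the minus strand.

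ID3 had no peak at 16 h, where the nearest was 547 kb away. At 1.5 h it had 2 adjoining peaks 34 kb upstream, at chr1:23920103-23920252 (score 59.3) and chr1:23920259-23920369 (score 57.6), with 6 bp between them. They lay on the side of RPL11, with 66.5% and 71.8% of the 1.5 h list scoring higher. ID2 had no peak in its window at either time. Its nearest 16 h peak was 386 kb downstream with a score of 79.0. Its nearest 1.5 h peak was 83 kb upstream at chr2:8738577-8738670 with a score of 52.6. The ID3 promoter, that of an ID gene with no peak near its start, held none of the 7 motifs and is therefore all in lower case.
ID3, chr1:23559452-23559751, minus strand: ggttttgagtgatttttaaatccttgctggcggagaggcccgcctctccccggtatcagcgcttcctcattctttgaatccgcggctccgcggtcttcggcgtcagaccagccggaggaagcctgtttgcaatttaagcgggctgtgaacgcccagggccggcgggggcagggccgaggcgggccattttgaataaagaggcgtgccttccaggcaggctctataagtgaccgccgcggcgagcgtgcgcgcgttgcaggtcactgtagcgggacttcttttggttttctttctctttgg

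Over the promoters of these 7 genes, of which KLF11 has 2, GGGCGG was found in 6 genes and in 45.0% of all promoters. The member promoters were also richer in G and C, at 59.7% (ID3) to 77.3% (KLF11), against a median of 58.7% over all promoters. TGACGTCA, bound by ATF and CREB factors, was found in 1 of the 2 KLF11 promoters and in 1.85% of all. GTCTAGAC, the full SMAD palindrome, the GC-rich palindrome GGCGCC and the AP-1 motif TGANTCA were found in none of the 7 genes and in 0.202%, 19.2% and 7.71% of all promoters. These are letter matches on both strands in windows that were not shown to hold a peak, and they say nothing of binding.

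At 16 h the 7 peaks scored 50.02 to 239.6 with a median of 77.5, where the whole list had a median of 56.2. At 1.5 h the 10 peaks scored 57.4 to 125.4 with a median of 61.9, where the whole list had a median of 64.9. A score of 100 or more was reached by 2 of 7 peaks at 16 h, where 11.5% of the list did, and by 1 of 10 at 1.5 h, where 20.1% did. All 3 were at BHLHE40. Outside BHLHE40, the highest score was 77.5 (ID1) at 16 h and 62.5 (CDKN1A) at 1.5 h. Neither the definition of the score nor the depth of the libraries is known from the lists. Scores of the 2 libraries were therefore set side by side and not compared, apart from the common score cuts described below.

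**Figure D4:**
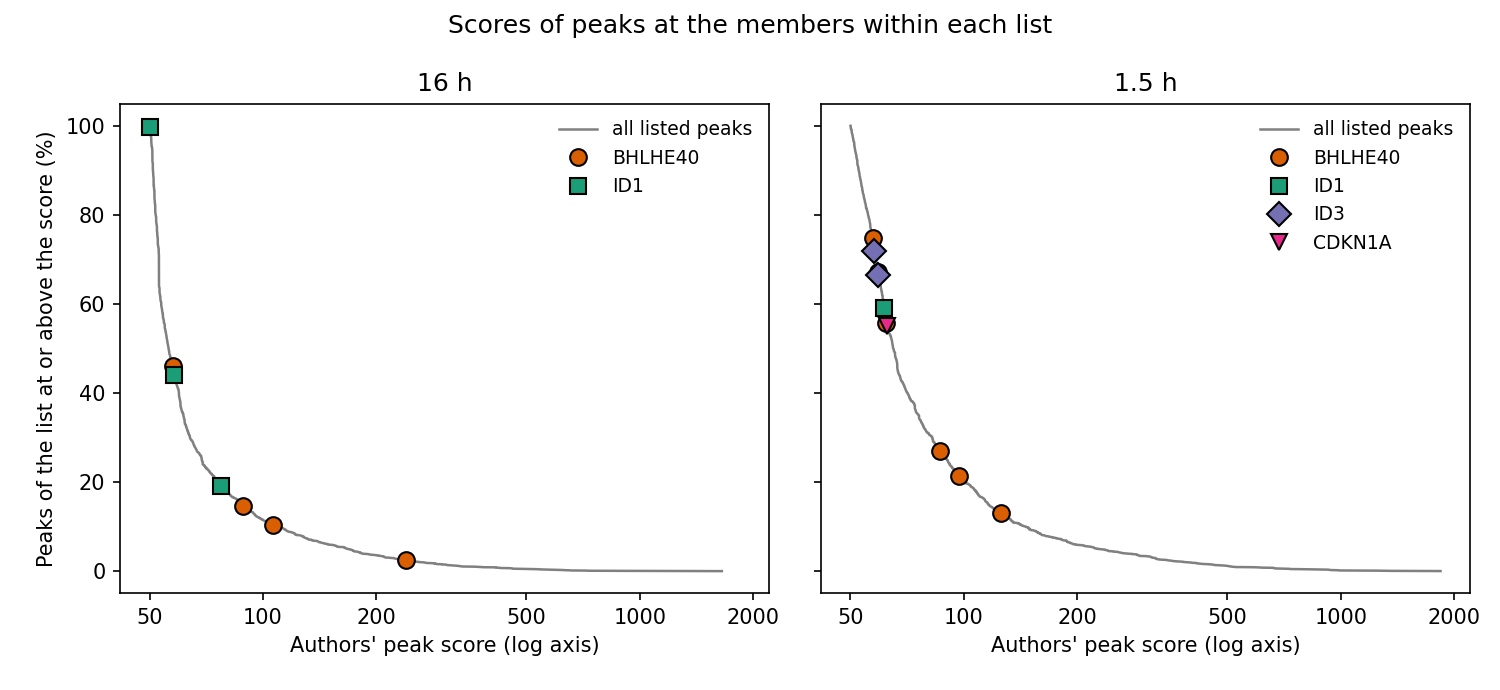
Percentage of listed peaks at or above a score (grey curve) against the authors' score (log axis) at 16 h (left) and 1.5 h (right), with the peaks of the member genes as symbols on the curve. BHLHE40 supplies the symbols at 100 or more, and the 3 ID1 peaks at 16 h run down to a score of 50.02, near the lower end of the list.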

How the data were processed

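Each ChIP library came with 1 deposited peak list in BED format, in which the authors gave every peak a MACS score. The tools in the submitters' processing notes are Bowtie 1.1.0, Picard and MACS 1.4.2, with build hg19. Their settings, the treatment of duplicates and the role of the input are not stated. No deposited score was below 50. The authors' scores served to describe and rank peaks inside a list. How the score was computed is not stated.

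Groups followed the treatment label. Starts were made 1-based, and overlap meant at least 1 bp. Gene limits were hg19, rounded to 1 kb, and no hg19 sequence or annotation was used. Neighbouring genes and strands followed RefSeq on GRCh38.p14, apart from the KLF10 strand, which is general knowledge. Promoters from RefSeq matched 7 of 8 members. All 8 genes and all of their peaks are named. Members and lists were chosen with earlier results of these data known, and the peak-free stretches were added after the peaks were seen. Related genes outside the set were not analysed. Tools were Python 3.11.15 with pandas 2.3.3, numpy 2.4.6, scipy 1.17.1 and matplotlib 3.10.9. On 5 simulated pairs of lists, the overlap code found 100% of 500 planted overlaps per pair.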

Additional observations from a re-analysis of the deposited data

How the results depend on the processing

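The number of peaks in the 8 windows, 7 at 16 h and 10 at 1.5 h, depended on the settings, and its difference of -3 turned under 2 of them. A score of at least 60 kept 4 peaks at 16 h and 6 at 1.5 h, of which 1 and 2 overlapped the other time. A score of at least 100 kept 2 peaks at 16 h and 1 at 1.5 h, a difference of 1, with 1 gene (BHLHE40) holding a peak and 1 peak overlapping at each time. The BHLHE40 difference of -2 became 1 under the same cut. A common cut keeps unlike shares of the lists, 11.5% of the 16 h and 20.1% of the 1.5 h peaks at 100 or more. Merging neighbours under 500 bp apart gave 6 peaks at 1.5 h, 2 of them overlapping, and a difference of 1, both over the 8 windows and at BHLHE40. These changes follow from removing low scores or joining pieces. Windows of 25 kb left 6 peaks and 1 gene at 1.5 h and a difference of -1, and windows of 100 kb gave 4 genes at 16 h. Asking for 50% reciprocal overlap kept 1 overlapping peak at each time. Without the BHLHE40 window, an alternative added after the data were seen, 3 peaks remained at 16 h and 4 at 1.5 h, a difference of -1. Shifting the stretches of 106 kb by 0.5 of their length left the shares holding a peak within their 95% exact binomial intervals. The shifted stretches cover the same peaks, so these shares could hardly change and the check is no measure of robustness. Over peaks of score 60 or more, the share scoring above the late BHLHE40 peak was 6.25%, against 2.44% of the full list. Of the values for single genes and peaks, 88 stayed the same or within 1.5 times the reported one, all of them peak numbers or their differences. Another 40 moved further and the 2 named at BHLHE40 turned. Many of the 88 were windows without a peak that stayed so, which score cuts, narrower windows and merging cannot change. Every share of a list scoring above a peak moved, because the cut at 60 shortens the list but removes no peak above it. The tally is therefore no measure of robustness. No paired analysis was possible because there is 1 library per time, which also means that none could be omitted. The lists do not give sequencing depth, so a site missing from a list cannot be told apart from one below its threshold.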
